A study of Mus musculus with 6 samples.

Results

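The genes described here encode the laminins, the nidogens and the large proteoglycans of the basement membrane: the laminin alpha chain genes Lama2, Lama4 and Lama5, the beta chain genes Lamb1 and Lamb2, the gamma chain gene Lamc1, the nidogen genes Nid1 and Nid2, the perlecan gene Hspg2 and the agrin gene Agrn. They were chosen by name as the chains and linkers of this sheet, and each of the 10 symbols matched 1 Ensembl row of the count files, 10 of 37991 gene rows. All 10 were among the 15035 genes that passed the filter on low counts, with between 873 and 49957 reads per gene and library. The RNA came from Nestin-GFP-positive cells, sorted out of digested dermis with its subcutaneous fat layer from mouse pups 3 days old. The 3 control libraries came from mice with the Nestin-GFP reporter alone (Nes-GFP). The 3 mutant libraries came from mice with the same reporter, Nestin-Cre, and the activating D842V change on 1 copy of Pdgfra (Nes-GFP;Nes-Cre;PDGFRα+/[S]D842V, where the labels do not explain "[S]"). All mice thus carried the reporter, and the recombinase and the allele differed together between the groups. The labels call the material white adipose tissue and pericytes are named in the series title, the cells that wrap capillaries and small venules. Nestin regulatory sequence is active in other cells too, so the sort and the recombination follow Nestin activity and not 1 cell type.

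A basement membrane is a thin sheet of matrix under epithelia and endothelia and around muscle fibres, fat cells, Schwann cells and pericytes. Laminins are trimers of 1 alpha, 1 beta and 1 gamma chain that assemble into a network on cell surfaces, held there by integrins and dystroglycan, and type IV collagen forms a separate network beside it. Nidogens bind the laminin gamma 1 chain and type IV collagen, and perlecan and agrin carry heparan sulfate chains that hold growth factors. Pericytes are embedded in the basement membrane that they share with the endothelium, and both cell types are known to contribute to it.

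Gene counts ran from 11912469 to 18792939 per library, at which a count of 0 would allow 0.16 to 0.252 CPM (a gene's reads scaled to its library's total of gene reads with TMM factors). All 6 libraries were used, since pairs within a group differed by more than sampling noise (4.73 to 13.3 as chi-square divided by its degrees of freedom). The labels name 3 mice per genotype and no batch or litter. Pdgfra itself was at 820 to 857 CPM in control and 345 to 369 CPM in mutant libraries, which separated the labelled groups, but reads per gene do not tell the 2 alleles apart. The defining pericyte markers Pdgfrb, Cspg4 and Rgs5 were detected in every library, and so were the fibroblast genes Col1a1 and Dcn at higher levels. In such bulk samples, fewer cells of a type and less RNA per cell cannot be told apart.

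The sequence upstream of Nid1 is shown because Nid1 was the 1 member that changed, and those of Hspg2 and Lamb1 because these are abundant members that were not called. Each is the 250 bases before a RefSeq start site in build GRCm38.p6, on the plus strand at chr13:13437352-13437601 for Nid1, chr4:137468553-137468802 for Hspg2 and chr12:31265043-31265292 for Lamb1, while the counts were made on mm9. Capitals mark the GC box letters GGGCGG, the core that Sp1-type factors bind, and the CCAAT box letters, on either strand.
Nid1: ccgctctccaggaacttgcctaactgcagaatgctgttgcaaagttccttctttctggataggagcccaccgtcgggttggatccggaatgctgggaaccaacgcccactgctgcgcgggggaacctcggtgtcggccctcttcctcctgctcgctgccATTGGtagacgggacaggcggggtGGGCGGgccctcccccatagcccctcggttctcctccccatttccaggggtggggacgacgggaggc
Hspg2: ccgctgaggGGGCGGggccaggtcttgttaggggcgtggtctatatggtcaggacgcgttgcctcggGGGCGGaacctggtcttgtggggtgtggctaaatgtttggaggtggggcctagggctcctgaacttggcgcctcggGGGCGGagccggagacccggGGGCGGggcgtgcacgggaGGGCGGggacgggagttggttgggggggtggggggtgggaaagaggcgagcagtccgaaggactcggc
Lamb1: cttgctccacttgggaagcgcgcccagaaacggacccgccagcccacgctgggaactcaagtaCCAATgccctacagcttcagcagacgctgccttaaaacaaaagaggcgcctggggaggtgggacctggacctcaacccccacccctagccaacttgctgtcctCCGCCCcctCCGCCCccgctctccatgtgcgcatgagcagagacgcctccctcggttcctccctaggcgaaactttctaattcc
The Nid1 window held 1 GC box, 67 bases before the start, and 1 CCAAT box, 91 bases before it. The Hspg2 window held 5 GC boxes and the Lamb1 window 2 GC boxes and 1 CCAAT box. Of all 32851 windows of this length in the RefSeq table, 32.7% held at least 1 GC box and 33.9% at least 1 CCAAT box. The table matched 7 members. Besides the 3 shown, Lama5 had 4 GC boxes and the start site of Agrn farther upstream had 12, while the windows of Lama2 and Lamb2 had neither motif. The letters TATAAA, on either strand, were in none of the members' windows and in 12.4% of all windows.

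Nid1, which links the laminin network to type IV collagen, was the 1 member called. It had 1759, 1901 and 2005 CPM in control replicates 1 to 3 and 2310, 2415 and 2638 CPM in mutant replicates 1 to 3. Every mutant library was above every control library. The means were 1888 ± 123 and 2454 ± 167 CPM (SD, n = 3 per group), a rise of 1.3-fold, with a log2 fold change of 0.38 (95% interval 0.18 to 0.58) and an edgeR adjusted p of 0.0156. The call was lost without control replicate 2 (adjusted p = 0.0573, log2 fold change 0.38) and without mutant replicate 3 (adjusted p = 0.0793, log2 fold change 0.32). Members called numbered 1 of 10, against 17.8% of all genes tested, so the share of calls in the family was not above the background. By edgeR none was called lower, against 9.13% of all genes tested, also at an unadjusted p under 0.05. DESeq2 and limma-voom called the same numbers, 1 higher and 0 lower, and at an unadjusted p under 0.05 DESeq2 had 1 member lower.

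**Figure D1:**
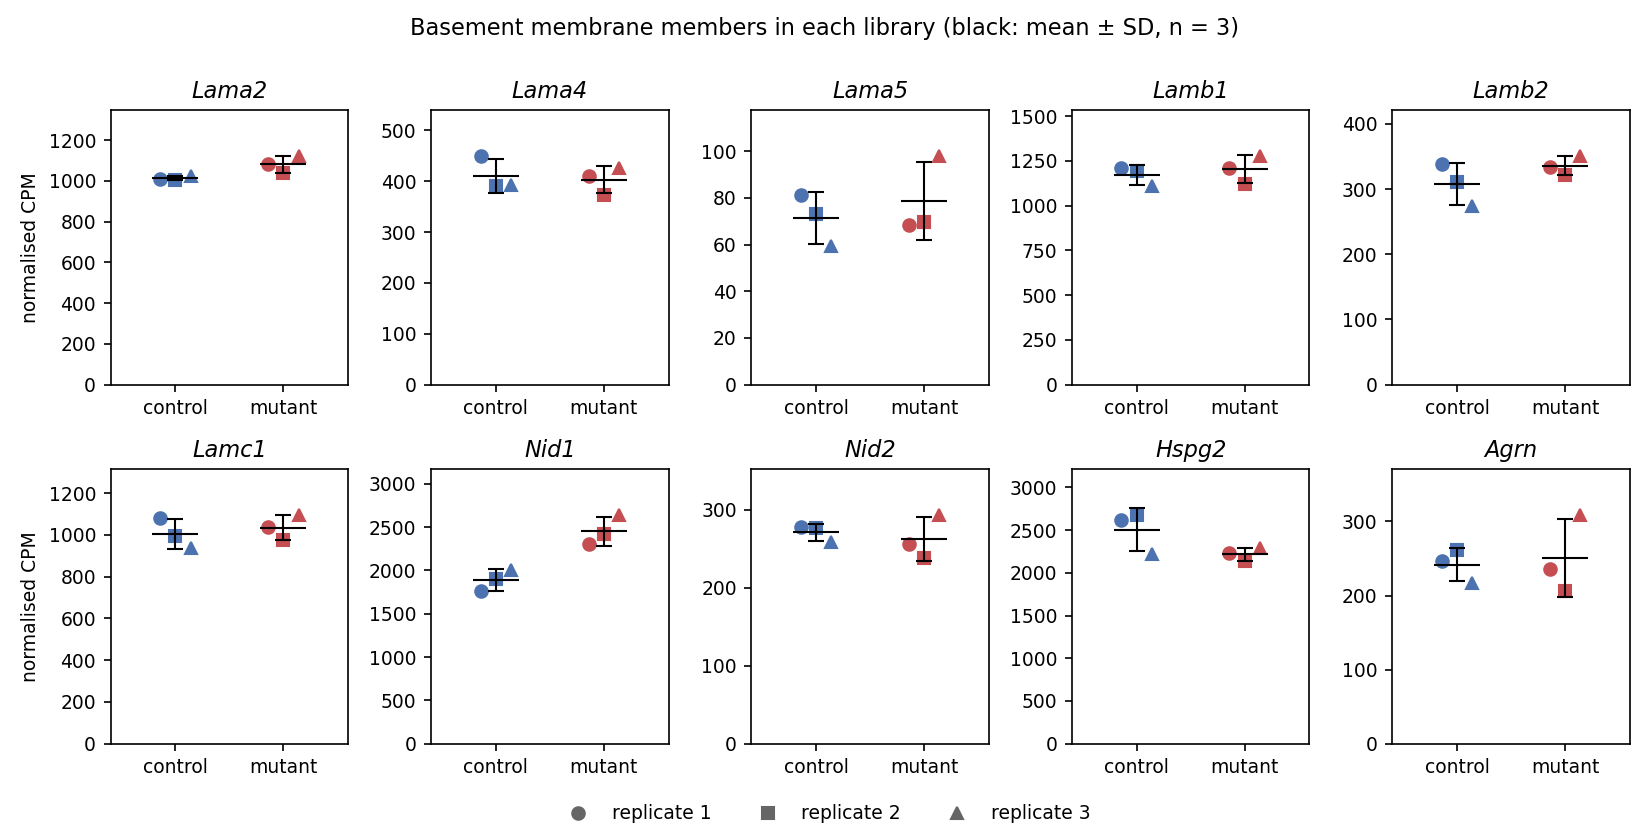
Normalised CPM of each of the 10 genes in the 3 control (blue) and 3 mutant (red) libraries, with the replicate given by the symbol and black bars for mean ± SD. Nid1 is the gene with the widest gap between the groups, 1759 to 2005 against 2310 to 2638 CPM, and in all 10 panels the highest mutant point is replicate 3.

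The second nidogen gene did not move with the first. Nid2, whose product also binds laminin and is enriched around vessels, had 278, 277 and 259 CPM in controls and 256, 238 and 293 CPM in mutants, and the groups overlapped. Its log2 fold change was -0.05 (95% interval -0.23 to 0.14, adjusted p = 0.747 by edgeR), so a rise as large as the estimate for Nid1 lies outside its interval. Nid2 reads carry an uncertainty, because 437 bases of its exons, 8.45%, overlap exons of Rtraf on the opposite strand and no source used here states whether the counting used strand. The ratio of the 2 nidogens within a library, per exon length, does not depend on how libraries are scaled. That ratio was 4.72, 5.12 and 5.77 in controls and 6.73, 7.57 and 6.7 in mutants, higher in 3 of 3 mutant libraries than in any control. On the log2 scale it rose from 2.37 ± 0.15 to 2.80 ± 0.10, a difference of 0.43 with an exact two-sided permutation p of 0.1 (n = 3 per group), the smallest p that 3 against 3 allows, and 0.267 after adjustment over the 8 ratios tested.

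The laminin alpha chain genes were not called. Lama2, the alpha chain of muscle and nerve basement membranes whose loss causes a congenital muscular dystrophy, had 1009, 1006 and 1024 CPM in controls and 1082, 1040 and 1122 CPM in mutants. Its groups did not overlap, yet the difference was small: the log2 fold change was 0.09 (95% interval -0.08 to 0.26, adjusted p = 0.434 by edgeR). Members without overlap and higher in mutants numbered 2 of 10, Nid1 and Lama2. Of all genes tested, 19.2% were without overlap in that direction, with those lower in mutants not counted in this share. Lama4, the alpha chain typical of vessels and fat cells, lay between 390 and 450 CPM in controls and between 374 and 425 CPM in mutants (log2 fold change -0.03, 95% interval -0.21 to 0.16). Lama5, a widespread alpha chain of epithelia and mature vessels, lay between 59.4 and 81.5 CPM in controls and between 68.4 and 98 CPM in mutants (log2 fold change 0.14, 95% interval -0.25 to 0.54). The interval of Lama5 is the widest of the 10, and it leaves room for a change as large as that of Nid1.

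The beta and gamma chain genes were close to level between the groups. Lamb1, the more abundant beta chain, had 1212, 1194 and 1110 CPM in controls and 1211, 1119 and 1277 CPM in mutants (log2 fold change 0.04, 95% interval -0.15 to 0.22, adjusted p = 0.802 by edgeR). Lamc1, the gamma chain of most laminins and a chain that nidogens bind, had 1081, 996 and 939 CPM in controls and 1037, 974 and 1095 CPM in mutants. The groups overlapped for both genes, and the log2 fold change of Lamc1 was 0.04 (95% interval -0.15 to 0.23, adjusted p = 0.775 by edgeR). Lamb2, a beta chain of the neuromuscular junction, the kidney filter and arteries, lay between 274 and 338 CPM in controls and between 321 and 351 CPM in mutants (log2 fold change 0.13, 95% interval -0.06 to 0.32). Without control replicate 3 its log2 fold change was 0.05.

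The proteoglycan genes were not called either. Hspg2, which encodes perlecan and had the highest CPM of the 10 in controls, had 2621, 2676 and 2216 CPM in controls and 2233, 2138 and 2285 CPM in mutants. Control replicate 3 lay within the mutant range, and the other controls lay above it. The log2 fold change was -0.17 (95% interval -0.38 to 0.03, adjusted p = 0.226 by edgeR). Agrn, best known for clustering acetylcholine receptors at the nerve-muscle synapse, had 246, 262 and 218 CPM in controls and 236, 206 and 309 CPM in mutants. Its log2 fold change was 0.05 (95% interval -0.28 to 0.38, adjusted p = 0.841 by edgeR), and without mutant replicate 3 it was -0.13. Gene counts do not separate the agrin splice forms that differ between nerve and other tissues.

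The family as a whole moved little. The median log2 fold change of the 10 genes was 0.05, against 0.01 for all genes tested, and the median of their absolute values was 0.07, against 0.20 for all genes tested. These medians are given as a description of the family, with no test. The members had at least 873 reads per library, while the filter's minimum count was 10. The medians thus compare genes of unlike depth, and no set of genes matched for depth was used. Their summed level was 8886 ± 337 CPM in controls and 9322 ± 514 CPM in mutants (SD, n = 3 per group).

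Libraries of 1 group differed from each other in the same direction for most members. Mutant replicate 3 had the highest level of the mutant libraries for 10 of 10 members and mutant replicate 2 the lowest for 8. Among controls, replicate 3 was lowest for 7 members and replicate 1 highest for 6. Nid1 and Lama2 departed from this order in the controls, where replicate 3 was their highest library. Mutant replicate 3 was also the deepest library. It had the highest sums of the endothelial, skeletal muscle, keratinocyte and dissociation stress lists given below. Among the mutants it also had the highest pericyte (1458 CPM), smooth muscle (657), Schwann cell (238) and macrophage (283) sums, but not the highest fibroblast or adipocyte sum. Control replicate 1 had the highest pericyte (1532 CPM), smooth muscle (994), Schwann cell (282), macrophage (288) and fibroblast (75908) sums of the 6 libraries. The part of depth, of those cells or of stress in the members' order was not tested.

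Per length of annotated exon, Nid1 had the highest level of the family. Dividing CPM by kilobases of annotated exon gave 272 ± 17.8 per kilobase for Nid1 in controls and 353 ± 24.1 in mutants. Hspg2 followed with 175 ± 17.5 and 155 ± 5.23, although its CPM was above that of Nid1 in controls, because its exons span 14307 bases against 6943. Lamc1 (122 ± 8.66 in controls) and Lamb1 (118 ± 5.52 in controls) came next, and their ranges over the 6 libraries overlapped. Lama2 stood at 62 ± 0.603, Lamb2 at 50.6 ± 5.28 and Nid2 at 52.4 ± 2.04 in controls, and the ranges of the last pair overlapped. Lama4 (34 ± 2.79) and Agrn (26 ± 2.41) also overlapped in range, and Lama5 was lowest with 6.27 ± 0.979. Each other step in the order, taken over all 6 libraries, separated genes whose ranges did not overlap. The lengths merge all annotated exons of a gene and can exceed that of the transcript present. The ranges do not cover this error, so the order of genes holds for these lengths only. The size of ratios between different genes rests on the same lengths.

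**Figure D2:**
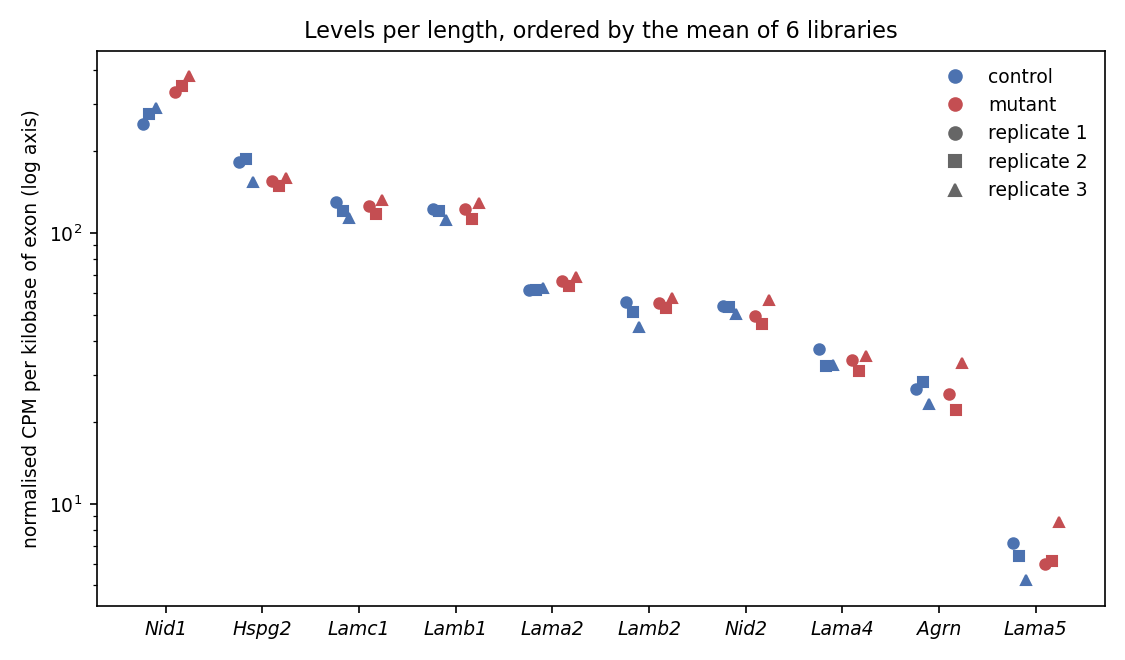
Normalised CPM per kilobase of exon on a log axis for the 10 genes in each control (blue) and mutant (red) library, ordered by the mean of the 6 libraries. Nid1 is highest in every library, Lamc1 and Lamb1 share a level, and Lama5 is lowest with 5.22 to 8.6 CPM per kilobase.

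Within a library the chains of the laminin trimer kept close proportions. The summed alpha chains Lama2, Lama4 and Lama5 per unit of Lamc1, per exon length, came to 0.844 ± 0.0376 in controls and 0.851 ± 0.00449 in mutants (exact permutation p = 0.7). The summed beta chains Lamb1 and Lamb2 per unit of Lamc1 came to 1.39 ± 0.0327 and 1.41 ± 0.00315 (exact permutation p = 0.4). Against the same Lamc1, Nid1 went from 1.94, 2.28 and 2.54 in controls to 2.65, 2.96 and 2.87 in mutants, a log2 difference of 0.33 with no overlap and an exact permutation p of 0.1. Lama2 per Lama4 was 1.83 ± 0.149 in controls and 1.99 ± 0.0609 in mutants, also without overlap (log2 difference 0.12, exact permutation p = 0.1), and control replicate 1, at 1.66, was the library farthest from the others. Without it the log2 difference was 0.05. Lama5 per Lama4, Lamb1 per Lamb2 and Hspg2 per Agrn overlapped between groups (exact permutation p of 0.5, 0.3 and 0.3). No ratio passed after adjustment over the 8, where the smallest adjusted p was 0.267.

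**Figure D3:**
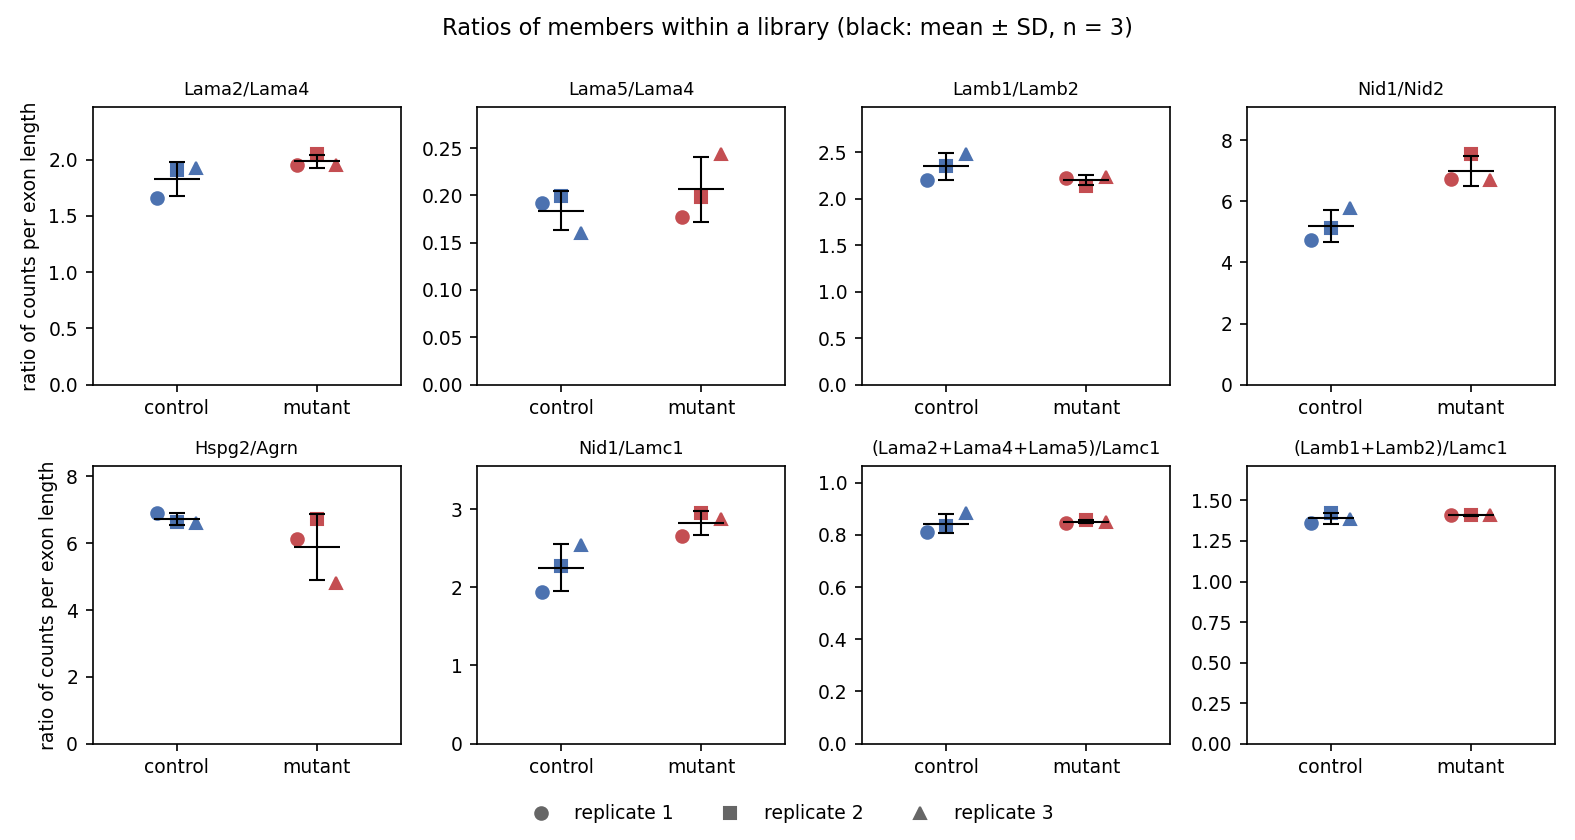
The 8 ratios of members within a library, from counts per exon length, in control (blue) and mutant (red) libraries with mean ± SD in black. Nid1 per Nid2, Nid1 per Lamc1 and Lama2 per Lama4 do not overlap between groups, and the summed alpha and beta chains per Lamc1 sit at nearly the same ratio in all 6 libraries.

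Among laminin chains outside the family of 10, Lamc3 and Lamb3 rose. Of 8 tested genes of other laminin chains and netrins, 3 rose and 5 were not called (median log2 fold change 0.13). The share called was 37.5%, against 17.8% of all genes tested, and it was not compared with that of the 10 by a test. Lamc3, a gamma chain whose laminins do not bind cells in the usual way through integrins, rose from 269 ± 37.5 to 362 ± 26.8 CPM (log2 fold change 0.43, adjusted p = 0.0156 by edgeR). Per length it reached 44.2 ± 6.16 CPM per kilobase in controls and 59.4 ± 4.4 in mutants, below Lamc1 and above Lama4 in both groups. Lamb3, which encodes a chain of epidermal laminin, rose from 9.22 ± 1.04 to 13.7 ± 2.92 CPM (log2 fold change 0.58, adjusted p = 0.0323 by edgeR). Lama3, an alpha chain of epithelia, had 12.1 ± 2.93 and 14.7 ± 2.73 CPM and was not called (adjusted p = 0.325 by edgeR). The calls of Lamc3 (adjusted p = 0.0635) and Lamb3 (adjusted p = 0.123) were lost without mutant replicate 3, where the list had 0 rises. Lamc3 also lost its call with control replicate 3 left out (adjusted p = 0.0503), and Lamb3 with control replicate 1 (0.0733), control replicate 3 (0.107) or mutant replicate 1 (0.109) left out. Rises in the list came to 1 with control replicate 3 or mutant replicate 1 left out.

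Markers of epidermal cells were higher in the same libraries. Of 8 keratinocyte markers 5 rose, led by Perp (log2 fold change 0.59, adjusted p = 0.0026 by edgeR). The share called was 62.5%, against 17.8% of all genes tested. The summed level of the 8 was 495 to 783 CPM in controls and 923 to 1159 CPM in mutants. Itgb4, the beta subunit of the integrin that binds epidermal laminin, rose from 20.7 ± 2.52 to 27.1 ± 0.862 CPM. The part of these markers in the rise of Lamb3 and Itgb4 was not tested. Rises in the keratinocyte list came to 2 when replicate 3 of either group was left out and to 3 when mutant replicate 1 was.

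Type IV collagen, the network that nidogens tie to laminin, split by chain. Of 9 tested collagens of the basement membrane and its zone, 2 fell and 7 were not called (median log2 fold change 0.05). The share called was 22.2%, against 17.8% of all genes tested. Col4a6 had 33, 25.8 and 28.1 CPM in controls and 9.46, 6.44 and 6.34 CPM in mutants, a fall of 1.98 on the log2 scale (95% interval -2.33 to -1.62, adjusted p = 5.92e-05 by edgeR). Col4a5, its neighbour on the X chromosome with which it shares a head-to-head start region, had 109, 91.5 and 89.9 CPM in controls and 48.2, 36.5 and 45.5 CPM in mutants (log2 fold change -1.16, adjusted p = 0.000167 by edgeR). Both calls were kept in all 13 alternatives. Col17a1, a collagen of the epidermal anchoring complex that is also one of the keratinocyte markers, had 40.1 ± 11.9 and 65.7 ± 9.88 CPM without overlap between groups and was not called (log2 fold change 0.72, adjusted p = 0.112 by edgeR), but was called with control replicate 1 left out (0.013). The main chains of vessel and fat basement membranes, Col4a1 (2655 ± 172 to 3065 ± 294 CPM) and Col4a2 (1688 ± 116 to 1808 ± 153 CPM), were far more abundant and were not called (log2 fold changes 0.21 and 0.10, adjusted p = 0.165 by edgeR and 0.498). Of these, Col4a1, Col4a2 and Col17a1 lie outside the rule for named genes and were added after their values were seen.

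**Figure D4:**
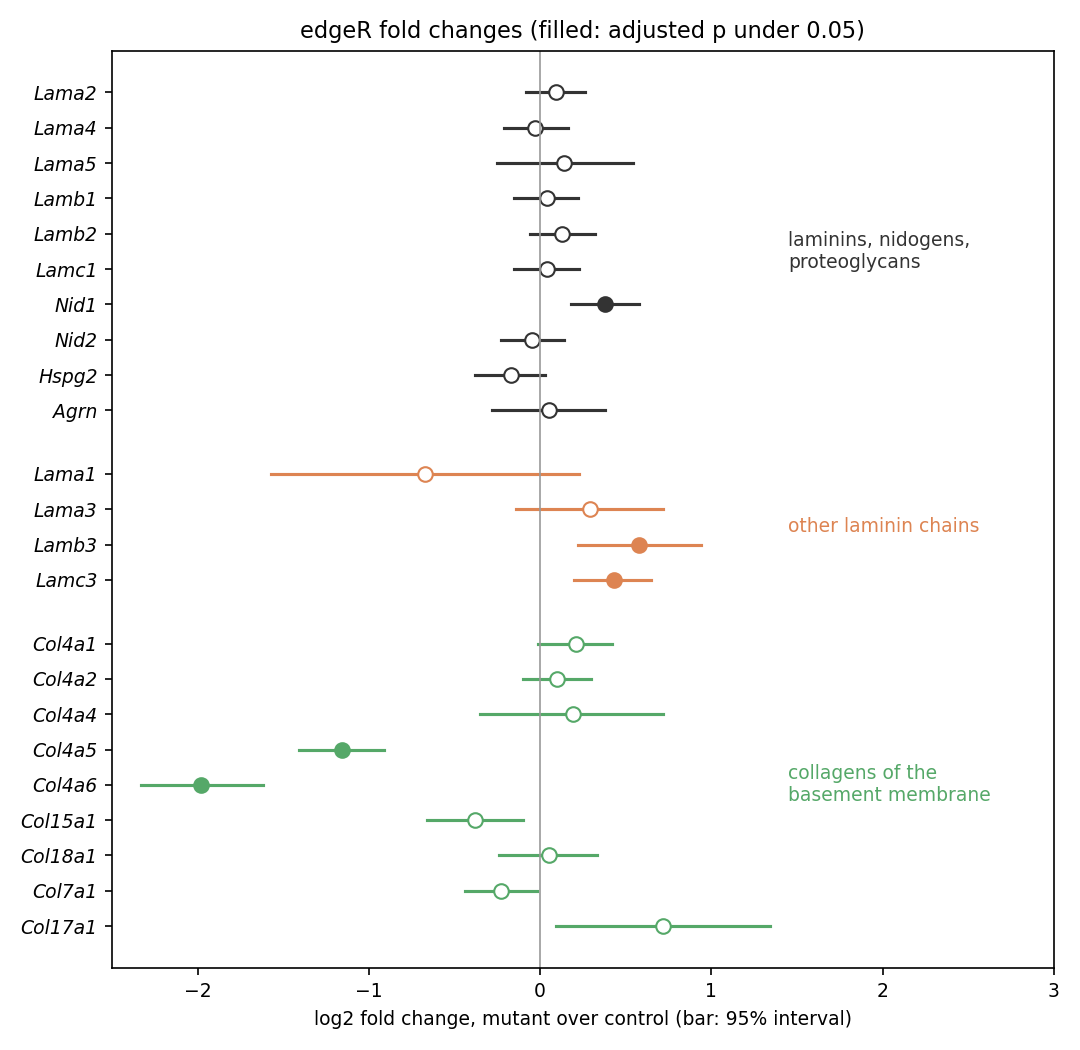
Log2 fold changes of mutant over control with 95% intervals from edgeR for the 10 genes (black), other laminin chains (orange) and collagens of the basement membrane and its zone (green), with filled circles for an adjusted p under 0.05. Nid1 is the only filled circle of the 10, and Col4a5 and Col4a6 lie far to the left at -1.16 and -1.98.

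Other proteins of the sheet and receptors held few calls each, with shares on either side of the 17.8% of all genes tested. Of 17 other basement membrane proteins 1 fell and 16 were not called, a share of 5.88% against 17.8% of all genes tested. This was Hmcn1, the extracellular adhesion protein hemicentin, which went from 357 ± 52.5 to 172 ± 21.3 CPM (log2 fold change -1.05, adjusted p = 0.000478 by edgeR). Falls in this list came to 2 when mutant replicate 3 was left out, and rises to 1 when control replicate 1 was and to 2 when mutant replicate 2 was. Of 15 laminin-binding integrins and other receptors 3 rose and 1 fell (median -0.02), a share of 26.7%. That share was not tested, and without mutant replicate 3 the list had 0 rises and 0 falls. The syndecans, heparan sulfate proteoglycans of the cell surface, moved both ways: Sdc1 (log2 fold change 0.30) and Sdc3 (0.38) rose and Sdc2 fell by 0.30. The rises of Sdc1 and Sdc3 each lost their call in 5 of 13 alternatives, all of them with 1 library left out (largest adjusted p 0.096), and the fall of Sdc2 without mutant replicate 2 or 3 (0.0629). Itgb4 lost its call without control replicate 3 or mutant replicate 1 or 3 (0.0829).

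In the complex that ties laminin to the cytoskeleton, 1 of 13 genes was called, 7.69%, against 17.8% of all genes tested. Dmd, which encodes dystrophin, fell from 66.1 ± 6.64 to 47 ± 5.31 CPM (log2 fold change -0.49, adjusted p = 0.00705 by edgeR), a call kept in all 13 alternatives, while the falls of this list came to 2 with control replicate 1 or mutant replicate 3 left out. Dag1, the dystroglycan gene itself and chosen after its values were seen, had 282 ± 16.9 and 300.5 ± 17.4 CPM and was not called (adjusted p = 0.458 by edgeR). Of 12 genes for the sugar chain through which dystroglycan holds laminin 1 fell, B3galnt2, by 0.40 on the log2 scale (adjusted p = 0.0289 by edgeR). Its call was lost when control replicate 2 or 3 or mutant replicate 3 was dropped (adjusted p up to 0.124), and the list had 2 falls when mutant replicate 1 was. The share called was 8.33%, against 17.8% of all genes tested. The median of this list was -0.22, with 2 of 12 genes above 0. At an unadjusted p under 0.05, edgeR and limma-voom each had 6 genes lower and 1 higher, and DESeq2 2 lower and 0 higher. The share of all genes at that threshold was not counted.

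Heparan sulfate is the chain carried by perlecan and agrin. Of 24 genes that build and edit it, 4 were called higher and 2 lower (median log2 fold change 0.04). These 6 calls were 25% of the list, against 17.8% of all genes tested. The xylosyltransferases that start the chain went in opposite directions, with Xylt2 at 54.9 ± 1.94 and 69.6 ± 1.68 CPM (log2 fold change 0.34, adjusted p = 0.00863 by edgeR) and Xylt1 at 38 ± 2.22 and 28.9 ± 2.83 CPM (-0.39, adjusted p = 0.0151 by edgeR). The sulfotransferase genes Ndst3 and Hs6st2 had log2 fold changes of -0.50 and 0.38. Xylt2 kept its call in all 13 alternatives, and the others named lost theirs in 2 or 3 (largest adjusted p 0.124). With 1 library left out, 1 to 4 genes of this list were higher and 0 to 4 lower, with the fewest higher without control replicate 3 or mutant replicate 3.

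Of 14 proteases that cut basement membrane proteins 2 rose and 2 fell, 28.6%, against 17.8% of all genes tested. Ctsl, a lysosomal and secreted cathepsin, rose by 0.33 on the log2 scale (adjusted p = 0.0154 by edgeR), and Mmp9, a gelatinase at 0.749 ± 0.207 and 1.54 ± 0.32 CPM, by 1.05 (adjusted p = 0.0484 by edgeR). Adamts4 fell by 0.47 and Htra1, a serine protease, from 425 ± 64 to 266 ± 54.1 CPM (log2 fold change -0.68, adjusted p = 0.0243 by edgeR). Mmp9 lost its call in 10 of 13 alternatives (largest adjusted p 0.178). Ctsl lost its call without control replicate 2 or 3 or mutant replicate 3 (0.0665), Adamts4 without control replicate 2 or 3 (0.0672) and Htra1 without control replicate 3 or mutant replicate 2 or 3 (0.0796). Over all 8 lists around the family, 12 of 112 tested genes rose and 10 fell, 19.6%, near the 17.8% of all genes tested. With 1 library left out the rises ran from 1 to 13 and the falls from 5 to 13, with the fewest rises without mutant replicate 3 (1), control replicate 3 (2) and mutant replicate 1 (5), and the fewest falls without control replicate 3 (5).

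Markers of cell types that make these proteins differed between the groups. Of 10 endothelial markers 5 rose, led by Tek (log2 fold change 0.75, adjusted p = 0.00144 by edgeR), and their sum was 157 to 192 CPM in controls and 235 to 345 CPM in mutants, with 3 rises when control replicate 3 was left out. Of 10 skeletal muscle and satellite cell markers 7 rose, led by Cdh15 (1.14, adjusted p = 0.00137 by edgeR), with sums of 76.5 to 102 and 198 to 299.6 CPM. Of 8 Schwann cell markers 1 fell, and the sums were 253 to 282 and 196 to 238 CPM. Of 6 smooth muscle markers 1 fell, Smtn (-0.57, adjusted p = 0.0012 by edgeR), with sums of 738 to 994 and 445 to 657 CPM. The 8 pericyte markers summed to 1221 to 1532 CPM in controls and 1177 to 1458 CPM in mutants, and 2 of them rose, the channel subunit genes Kcnj8 and Abcc9. Only 3 of the 8 pericyte markers were above 0, and their median log2 fold change was -0.08. With control replicate 3 left out, 2 of them rose and 1 fell. Shares called were 50% of the endothelial, 70% of the skeletal muscle, 12.5% of the Schwann cell, 16.7% of the smooth muscle and 25% of the pericyte list. Of all genes tested, 17.8% were called. None of the 68 genes in the marker lists was at 0 in every library. The part of these cells in the rise of Nid1 or in the levels of Lama2, Lama4 and Agrn was not tested.

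**Figure D5:**
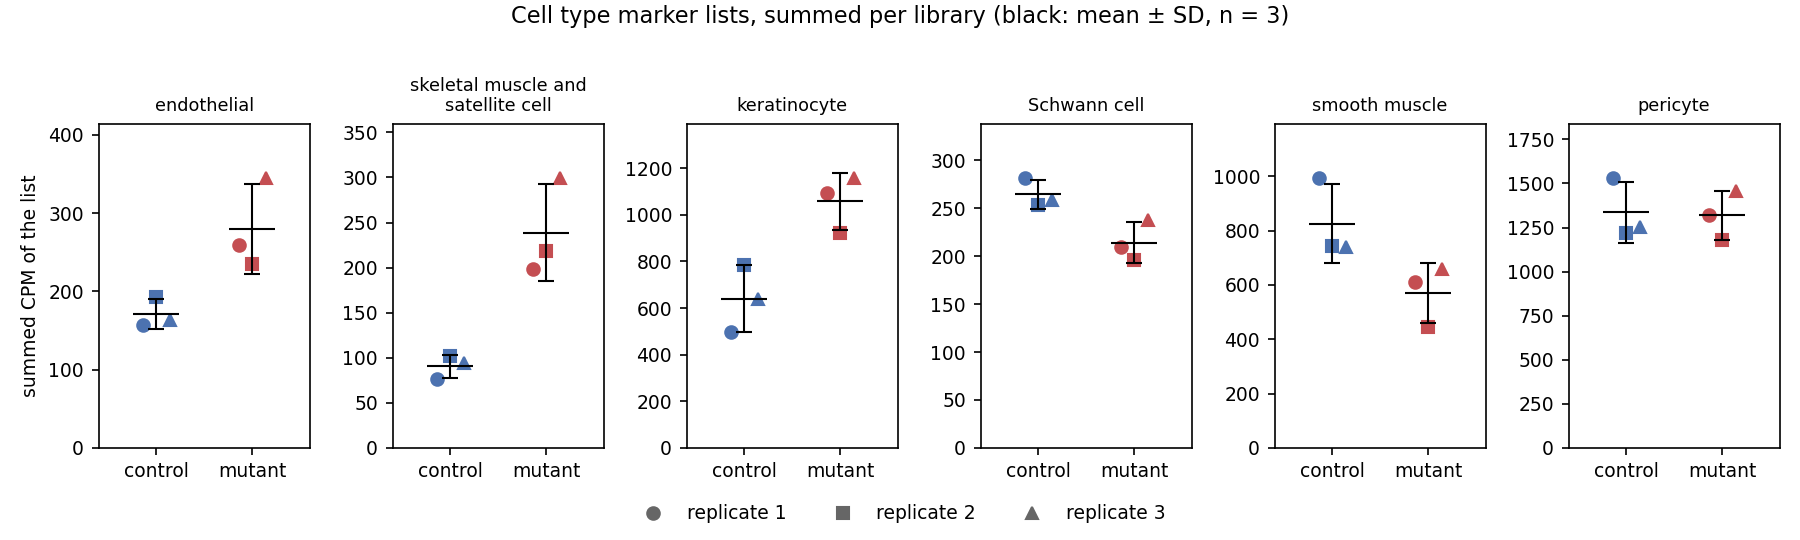
Summed CPM of 6 marker lists in each control (blue) and mutant (red) library with mean ± SD in black. The endothelial, skeletal muscle and keratinocyte sums are higher in every mutant library than in any control, the Schwann cell and smooth muscle sums are lower, and the pericyte sums overlap.

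The remaining lists were fibroblast, adipocyte and macrophage markers and genes of the stress of dissociation. Of 6 fibroblast markers 2 fell, Pdgfra and Dpp4, the first with the smallest adjusted p by edgeR (2.75e-06), and the falls came to 4 with mutant replicate 1 left out. Pdgfra is also the gene altered in the mutants. Of the 6 fibroblast markers 0 were above 0, and the median log2 fold change was -0.26. Their sums were 68152 to 75908 CPM in controls and 55635 to 69012 CPM in mutants, with overlap. By edgeR none of 5 tested adipocyte markers and none of 6 macrophage markers was called. Unadjusted p-values under 0.05 numbered 0 and 1, limma-voom called none of either list, and DESeq2 called 2 adipocyte markers higher and no macrophage marker. Plin1, the lipid droplet protein of fat cells, had 35.9 ± 11.2 and 32.6 ± 17 CPM. The other 4 tested adipocyte markers were above 0, the median log2 fold change was 2.57, and the summed level was 271 CPM in mutant replicate 2 against 34.3 to 73.1 CPM in the other libraries. Without mutant replicate 2 the median was 0.73. Mrc1, a macrophage receptor, had 89.9 ± 15.8 and 100.3 ± 7.48 CPM, and 2 macrophage markers were called higher when control replicate 1 was left out. Of 10 dissociation and stress genes 1 rose and 2 fell, with the heat shock gene Hspa1b showing the smallest adjusted p (log2 fold change -2.40, adjusted p = 0.00314 by edgeR). The list as a whole lay the other way: 7 of 10 genes were above 0, the median log2 fold change was 0.41, and the sum was 5394 to 8726 CPM in controls and 9845 to 11260 CPM in mutants, higher in every mutant library. The gene that rose was the early response gene Jun (log2 fold change 0.58), named after its values were seen. Rises in this list came to 3 and its median to 0.17 with control replicate 1, the library with the lowest sum, left out. Shares called were 33.3% of the fibroblast list and 30% of the stress list, against 17.8% of all genes tested. The part of this stress signature in the rise of Nid1 was not tested. Reads of Hspa1b are uncertain because Hspa1a is a near-identical copy.

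Nid1 shared its profile over the 6 libraries with genes of other kinds. Among 10886 genes with a symbol and a mean of at least 5 CPM, the highest Pearson r of log2 CPM with Nid1 belonged to Rnf144a (0.996), Klhdc10 (0.996) and Dhx35 (0.995), each over the same 6 libraries. Rnf144a, a ubiquitin ligase gene, went from 77.8 ± 5.34 to 107.7 ± 8.75 CPM (log2 fold change 0.47), Klhdc10 from 95.8 ± 5.28 to 117 ± 6.99 CPM (0.29), and Dhx35, an RNA helicase gene, from 18.9 ± 0.525 to 21.2 ± 0.658 CPM (0.16, not called). Of the 10886 genes, 156 had an r above 0.95. An r over 6 libraries also takes in any difference between the 2 groups, and the likeness is given as a description with no test.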

How the data were processed

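Gene-level read counts of 6 libraries, 3 control and 3 mutant, were analysed as deposited. The deposited files hold whole-number counts per Ensembl gene. The submitters' processing notes list mm9 as build and, with no roles stated, cutadapt 1.1, FastQC, HTSeq 0.5.3, TopHat2 2.0.4 and DESeq2. The 5 rows that name no gene, 36.9% to 41.7% of listed reads, stayed out. Symbols matched 86.6% of gene rows and 99.3% of counts. Exon lengths and overlaps came from GENCODE M21 on GRCm38, so no mm9 coordinate is printed. The main test was edgeR 4.0.16 (R 4.3.3): TMM scaling, filterByExpr (minimum count 10, minimum total 15), robust quasi-likelihood F test of group with no other term, adjusted over all genes tested (Benjamini-Hochberg), called under 0.05. Intervals are at the 95% level. Count floors (3 counts) cover counting error only, since the labels name no molecular identifiers. Alternatives were DESeq2 1.42.0, limma-voom (limma 3.58.1), other scaling and filters, a replicate block and each library left out. The genes and lists were chosen with earlier results of these data known. Named genes were the 10 members, up to 4 called genes (otherwise the 2 most abundant) of each list around them, 1 of each marker list, and the 3 genes most like each called member. Some genes so named are not reported here. Ratios within libraries used counts per exon length with exact two-sided permutation over libraries.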

Additional observations from a re-analysis of the deposited data

How the results depend on the processing

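The call of Nid1 stayed under both other scalings, both other filters, DESeq2 and limma-voom. With 1 library left out, the number of members called higher was 0 to 1, with 0 when control replicate 2 or mutant replicate 3 was dropped, and the number called lower stayed 0. Among the 112 genes of the surrounding lists, genes called higher numbered 1 to 13 and genes called lower 5 to 13 with 1 library left out, and both counts stayed within 1.5 times of 12 and 10 under every other alternative. Over all genes tested, calls fell to 658 higher and 753 lower without mutant replicate 3. Small log2 fold changes of uncalled genes crossed 0 with 1 library left out, and the causes were not tested: Lama4 ran from -0.07 to 0.03, Lama5 ran from -0.05 to 0.24, Lamb1 ran from -0.01 to 0.09, Lamc1 ran from -0.01 to 0.09, Nid2 ran from -0.13 to 0.02, Agrn ran from -0.13 to 0.17 and Plin1 ran from -0.56 to 0.21. The other sign was that of Lama4 when control replicate 1 (0.03) or mutant replicate 2 (0.02) was left out, of Nid2 when mutant replicate 2 was (0.02), and of Lama5 when mutant replicate 3 was (-0.05). Lamb1 (0.00), Lamc1 (-0.01), Agrn (-0.02) and Plin1 (0.14) turned with control replicate 3 left out, and Lamb1 (-0.01), Agrn (-0.13) and Plin1 (0.21) with mutant replicate 3 left out. With 1 library left out, the log2 difference was 0.36 to 0.51 for Nid1 per Nid2 and 0.05 to 0.16 for Lama2 per Lama4. Lamb2 ran from 0.05 to 0.19 and Hspg2 from -0.26 to -0.13.

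Whether the shared replicate numbers pair the libraries could not be decided with 3 libraries per group. Deviations from the group means of same-numbered libraries correlated at 0.117, -0.029 and -0.087, and those of the other pairs at -0.101 to 0.158. The replicate numbers are those of the sample titles, and the deposited mutant files are numbered 1 higher. By the file numbers, control replicates 2 and 3 would face mutant replicates 1 and 2, with correlations of -0.057 and 0.158, and no block was fitted that way. With the replicate number as a block, members called numbered 1 higher and 0 lower, the surrounding lists had 13 higher and 13 lower, and Nid1 had an adjusted p of 0.0105.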
